A study of Homo sapiens with 6 samples.

Results

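Matrix-attached DNA was mapped by MAR-seq in H1 cells, a human embryonic stem cell line, and the regions examined here were those present in both control lists and absent after HNRNPU knockdown. The regions were chosen by their presence or absence in the 3 lists, which is the readout itself: a region was taken when it was in the shLUC list, overlapped an hPSC region by at least 1 bp and overlapped no shHNRNPU region. There were 1807 such regions among the 39368 regions of the shLUC list (4.59%), and among 115751 regions in the 3 lists together. The study held 6 samples in 3 groups of 2. The hPSC group was untreated H1 cells, the shLUC group was H1 cells with an shRNA against LUC, and the shHNRNPU group was H1 cells with an shRNA against HNRNPU. All 3 groups shared the cell line, the medium and the extraction protocol. The labels do not give the hairpin sequences, how and for how long they were given, the extent of the knockdown or a batch. Each group was deposited as 1 list of regions 400 bp wide, with 40106 regions for hPSC, 39368 for shLUC and 36277 for shHNRNPU. With 1 list per group there was no replicate error, no depth and no height for any region, so presence or absence was the only readout. The lists hold no expression values, so neither the cell type nor the knockdown could be checked against marker genes.

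The nuclear matrix is the protein and RNA framework that remains when soluble material has been washed out of a nucleus. Matrix or scaffold attachment regions are the stretches of DNA held by it, and they are classically described as rich in A and T. HNRNPU, also named SAF-A, binds both such DNA and nuclear RNA, and has been linked to the organization of active chromatin. In the protocol, nuclei were crosslinked and cut with 6 restriction enzymes, so the DNA that was kept was also bounded by the sites of these enzymes.

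The sequence at these regions can be read where they fall on promoters. Of the 1723 regions on chromosomes with promoter windows, 442 (25.7%, 95% Wilson interval 23.6 to 27.8%) overlapped a promoter window in the RefSeq table of GRCh38.p14, which runs from 250 bases before to 50 after a start site. In 112 cases the whole window lay inside the region. Of these 112, the pairs with the highest and the lowest GC content are shown to give the range, together with 6 windows of genes from the lists described further on, in order of GC content, with the sites of the 6 enzymes in capitals (MspI CCGG, HaeIII GGCC, RsaI GTAC, AluI AGCT, BamHI GGATCC and PvuII CAGCTG, which contains an AluI site).
PRPF40B (chr12:49623311-49623610, plus strand): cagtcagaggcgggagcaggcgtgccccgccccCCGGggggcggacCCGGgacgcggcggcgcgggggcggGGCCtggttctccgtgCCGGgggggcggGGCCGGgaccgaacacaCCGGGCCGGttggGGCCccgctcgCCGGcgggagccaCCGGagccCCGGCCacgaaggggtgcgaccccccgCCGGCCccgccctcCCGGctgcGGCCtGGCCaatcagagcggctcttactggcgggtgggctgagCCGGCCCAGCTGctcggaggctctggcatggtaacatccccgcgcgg
LOC102724351 (chr10:103966996-103967295, minus strand): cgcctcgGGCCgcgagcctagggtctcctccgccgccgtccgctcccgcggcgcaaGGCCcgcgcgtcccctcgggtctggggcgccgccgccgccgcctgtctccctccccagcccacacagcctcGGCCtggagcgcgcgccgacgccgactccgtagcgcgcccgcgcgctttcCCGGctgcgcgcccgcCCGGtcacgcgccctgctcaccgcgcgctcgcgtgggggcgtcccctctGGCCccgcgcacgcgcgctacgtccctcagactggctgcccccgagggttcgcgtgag
PSME1 (chr14:24135944-24136243, plus strand): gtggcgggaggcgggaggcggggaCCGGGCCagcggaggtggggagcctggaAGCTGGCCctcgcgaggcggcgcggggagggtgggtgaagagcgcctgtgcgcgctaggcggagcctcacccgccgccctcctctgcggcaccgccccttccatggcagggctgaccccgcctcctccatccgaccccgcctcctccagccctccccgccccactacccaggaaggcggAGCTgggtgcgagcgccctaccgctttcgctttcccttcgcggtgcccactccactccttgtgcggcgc
ZEB1 (chr10:31319518-31319817, plus strand): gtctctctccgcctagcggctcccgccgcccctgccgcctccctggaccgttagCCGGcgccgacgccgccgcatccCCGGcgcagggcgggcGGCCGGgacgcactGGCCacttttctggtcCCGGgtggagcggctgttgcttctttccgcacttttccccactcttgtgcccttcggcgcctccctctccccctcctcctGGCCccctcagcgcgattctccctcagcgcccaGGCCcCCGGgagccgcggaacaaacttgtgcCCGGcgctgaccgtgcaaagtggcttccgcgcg
PSMG1 (chr21:39183402-39183701, minus strand): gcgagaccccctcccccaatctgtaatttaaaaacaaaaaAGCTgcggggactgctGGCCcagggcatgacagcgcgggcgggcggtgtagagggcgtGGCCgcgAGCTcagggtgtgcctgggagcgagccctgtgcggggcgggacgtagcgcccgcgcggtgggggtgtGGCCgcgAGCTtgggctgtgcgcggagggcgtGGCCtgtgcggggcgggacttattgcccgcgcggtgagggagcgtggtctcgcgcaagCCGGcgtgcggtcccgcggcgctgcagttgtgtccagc
NRXN3 (chr14:79279130-79279429, plus strand): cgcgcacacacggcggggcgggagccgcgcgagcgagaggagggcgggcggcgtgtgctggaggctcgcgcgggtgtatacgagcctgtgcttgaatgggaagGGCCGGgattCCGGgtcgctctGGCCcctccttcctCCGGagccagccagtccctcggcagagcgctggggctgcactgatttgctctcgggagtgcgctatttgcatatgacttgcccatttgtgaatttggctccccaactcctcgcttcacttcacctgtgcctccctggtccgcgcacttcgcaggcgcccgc
RFC4 (chr3:186806433-186806732, minus strand): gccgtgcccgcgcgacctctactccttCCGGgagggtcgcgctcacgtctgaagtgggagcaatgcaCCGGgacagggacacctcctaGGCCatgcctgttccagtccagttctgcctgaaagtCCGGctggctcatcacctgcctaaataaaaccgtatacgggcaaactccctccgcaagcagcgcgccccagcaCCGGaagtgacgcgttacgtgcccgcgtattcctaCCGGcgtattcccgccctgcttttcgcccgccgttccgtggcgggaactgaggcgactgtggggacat
SRSF10 (chr1:23980278-23980577, minus strand): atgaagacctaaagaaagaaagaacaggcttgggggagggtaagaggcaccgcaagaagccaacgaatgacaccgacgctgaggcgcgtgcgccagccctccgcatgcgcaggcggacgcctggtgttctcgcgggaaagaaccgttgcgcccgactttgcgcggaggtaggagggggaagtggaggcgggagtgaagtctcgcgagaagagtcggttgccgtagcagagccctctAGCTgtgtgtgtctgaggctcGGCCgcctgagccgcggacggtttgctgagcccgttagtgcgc
PACERR (chr1:186680404-186680703, plus strand): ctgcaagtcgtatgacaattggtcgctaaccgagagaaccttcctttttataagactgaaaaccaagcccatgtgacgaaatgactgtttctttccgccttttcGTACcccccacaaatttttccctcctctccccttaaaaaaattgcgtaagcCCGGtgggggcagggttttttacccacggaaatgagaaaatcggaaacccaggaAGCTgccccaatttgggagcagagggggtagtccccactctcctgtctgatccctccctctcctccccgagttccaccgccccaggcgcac
MYT1L (chr2:2324640-2324939, minus strand): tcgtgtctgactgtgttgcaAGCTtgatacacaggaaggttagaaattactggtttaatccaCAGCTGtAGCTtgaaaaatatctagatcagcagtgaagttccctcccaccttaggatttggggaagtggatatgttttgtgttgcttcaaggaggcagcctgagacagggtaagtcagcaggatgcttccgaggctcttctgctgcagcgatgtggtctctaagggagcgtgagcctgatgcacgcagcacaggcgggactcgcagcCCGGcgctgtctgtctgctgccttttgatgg
These windows ran from CpG-dense to CpG-poor sequence. PRPF40B, which codes for a factor of pre-mRNA splicing, had 80.3% GC, 39 CpG dinucleotides and 12 MspI sites. The non-coding gene LOC102724351 also had 80.3% GC, with 55 CpGs but only 2 MspI sites. PSME1 and PSMG1, which code for an activator subunit and an assembly chaperone of the proteasome, had 31 and 36 CpGs. ZEB1, a transcription factor of the epithelial-to-mesenchymal transition, had 72.3% GC and 35 CpGs. NRXN3, a presynaptic adhesion molecule, had 67.0% GC and 30 CpGs. RFC4, a subunit of the clamp loader of DNA replication, had 63.3% GC and 2 copies of the ETS core (CCGGAAG on either strand, which contains an MspI site). SRSF10, a splicing factor, had 63.0% GC and 0 MspI sites. At the other end were PACERR, a non-coding RNA next to PTGS2, with 52.3% GC and a TATA box on the opposite strand (TATAAA, searched on both strands), and an internal start site of MYT1L, a zinc-finger transcription factor of neurons, with 51.7% GC and 9 CpGs.

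The first question was how often a region seen in both controls was absent after knockdown. Of 5609 shLUC regions with an hPSC region, 1807 (32.2%) had no shHNRNPU region. Of the 33759 shLUC regions without an hPSC region, 9693 (28.7%) had none, a difference of 3.50 percentage points. The direction of this difference depended on regions with identical coordinates in both controls, without which it was -7.18 points. These shares are set by the lists that chose the regions and are given as a description. The same kind of absence was then counted with the roles of the hairpin lists exchanged. There were 2481 shHNRNPU regions (6.84% of that list) that overlapped an hPSC region and no shLUC region, and they made up 39.5% of the 6282 shHNRNPU regions with an hPSC region. Regions shared by untreated and knockdown cells but absent from the hairpin control were thus 1.37 times as many as the regions of both controls absent after knockdown. How much of the absence goes with HNRNPU and how much with differences in depth, calling or culture between lists was not tested.

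Few of the regions had a shHNRNPU region close by. Of the 27868 shLUC regions that overlapped a shHNRNPU region, 27865 had identical coordinates. A small shift between the hairpin lists could therefore hardly appear, and whether an absence was a shift was not tested. The matched hPSC regions overlapped no shHNRNPU region in 1807 of 1807 cases. The rule nearly fixed this, since only 15 of the regions had a shHNRNPU region within 400 bp. With the hairpin lists exchanged, the matched hPSC region overlapped a shLUC region in 1 of 2481 cases. From the regions of both controls, the nearest shHNRNPU region lay at a median of 22.6 kb (quartiles 9.81 and 46.4 kb). Only 40 regions (2.21%) had one within 1 kb, and 467 (25.8%, interval 23.9 to 27.9%) had one within 10 kb. For the 2481 regions absent from shLUC, the nearest shLUC region lay at a median of 21.7 kb, with 26.3% within 10 kb. The quartiles of these distances were 9.49 and 44.8 kb, while the largest was 2033 kb, against 648 kb for the regions of both controls. Just inside the limit, 3 regions had a shHNRNPU region at a gap of 21, 23 and 33 bp, at ARHGAP10 on chromosome 4 (147732349 to 147732748), at SLC16A1 on chromosome 1 (112955620 to 112956019) and at TMTC1 on chromosome 12 (29783811 to 29784210). Just outside it, the region at VGLL4 on chromosome 3 (11719563 to 11719962) overlapped a shHNRNPU region by 8 bp and was left out. On the side of the hPSC list, the smallest overlaps that admitted a region were 1, 2 and 3 bp, and 35 shLUC-only regions missed an hPSC region by 100 bp or less. The regions farthest from any shHNRNPU region were on the sex chromosomes, at 648 kb on chromosome Y, 526 kb at ARHGAP6 on chromosome X (11665428 to 11665827) and 516 kb at GYG2 on chromosome X (2829051 to 2829450).

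**Figure D1:**
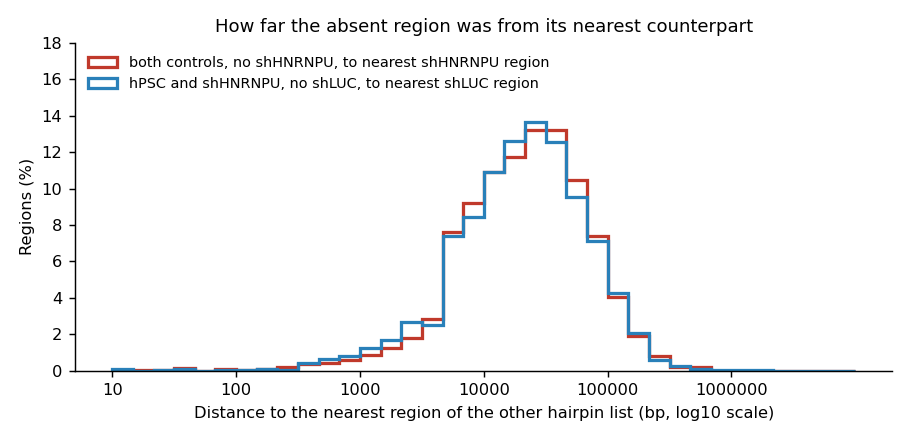
Distance in bp (log10 axis) from each of the 1807 regions of both controls to the nearest shHNRNPU region, and from each of the 2481 regions of hPSC and shHNRNPU to the nearest shLUC region, as percent of regions per bin (distances under 10 bp are drawn at 10). The bulk of the distributions is alike, with medians of 22.6 and 21.7 kb.

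Identical coordinates were more frequent here than among the regions kept in all 3 lists, as they were with the hairpin lists exchanged. These shares come from the lists that chose the regions and are given as a description. In 973 of the 1807 regions (53.8%, interval 51.5 to 56.1%) the start and end were the same in shLUC and hPSC. Of the 3802 shLUC regions found in all 3 lists, 762 (20.0%, interval 18.8 to 21.3%) did. Of the 2481 regions of hPSC and shHNRNPU without shLUC, 1590 (64.1%, interval 62.2 to 66.0%) were identical to the hPSC region. The remaining 834 regions of both controls were shifted by a median of 125 bp, with 417 hPSC regions to the left and 417 to the right. Seen from the other side, 56.1% of the 1735 regions that were identical in shLUC and hPSC lacked a shHNRNPU region, against 21.5% of the 3874 that overlapped with a shift. Among the regions of all 3 lists, 3800 of 3802 were identical between shLUC and shHNRNPU. How regions were brought to a common position and width in each list is not given in the sources used here.

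**Figure D2:**
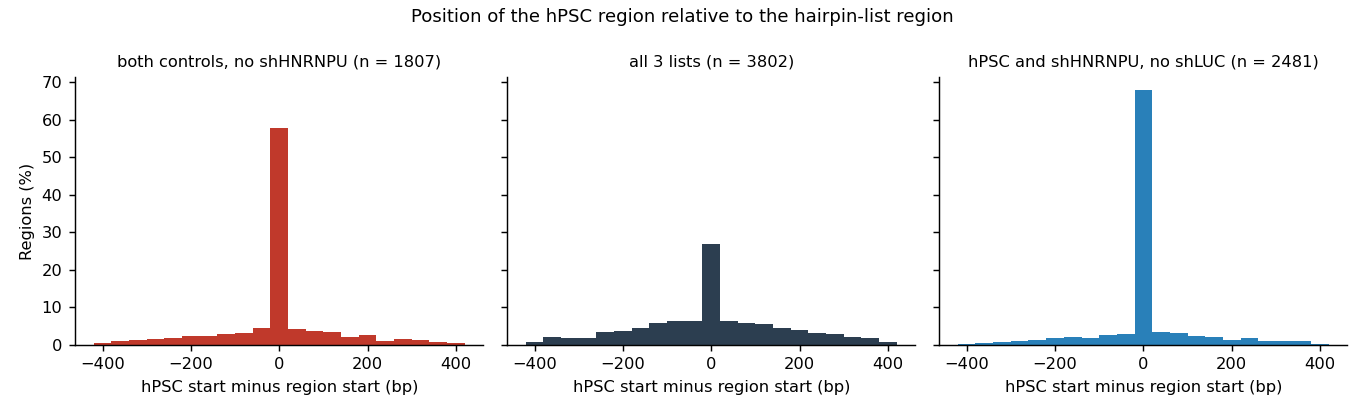
Start of the hPSC region minus start of the overlapping hairpin-list region (bp, bins of 40 bp) as percent of regions, for the regions of both controls absent after knockdown, for those in all 3 lists and for those of hPSC and shHNRNPU absent from shLUC. The central bar holds the identical regions, 53.8%, 20.0% and 64.1% of each group, and the smallest shifts.

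It was next asked where the regions lay relative to genes, which the selection had not used. Distances were taken from the centre of a region to the ends of 20037 protein-coding genes. Of the 1807 regions, 553 (30.6%, interval 28.5 to 32.8%) lay within 1 kb of a gene end. This was 15.4 points fewer than the 46.0% of the regions in all 3 lists (95% Newcombe interval of the difference -18.0 to -12.7). It was 24.3 points more than the 6.32% of shLUC-only regions (interval 22.1 to 26.5). It differed by 2.63 points from the 28.0% of regions absent from shLUC alone (interval -0.121 to 5.40), an interval that held 0. Within 5 kb of a gene end that difference was 3.46 points (interval 0.537 to 6.40), which did not hold 0. Identical and shifted regions differed among themselves, with 21.3% and 41.5% near a gene end. Within each kind the deficit against the regions in all 3 lists remained, at -13.1 points for identical regions (interval -17.3 to -8.87) and -7.39 points for shifted regions (interval -11.1 to -3.58). Intervals here cover counting error over regions, not variation between cultures.

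The centre lay in a protein-coding gene body for 1017 regions (56.3%, interval 54.0 to 58.6%). In all 3 lists the share was 63.2%, a difference of -6.95 points (interval -9.70 to -4.20), while regions absent from shLUC alone had 56.2%. A further 220 regions (12.2%) had their centre in genes of other biotypes only. Deep inside genes, over 50 kb from any gene end, lay 218 regions (12.1%), against 8.13% of those in all 3 lists. Intergenic positions over 50 kb from a gene end held 300 regions (16.6%), against 13.7%. Regions absent from shLUC alone had 13.5% deep inside genes and 16.2% in such intergenic positions. The differences from them were -1.48 points (interval -3.48 to 0.563) and 0.399 points (interval -1.83 to 2.67), and both intervals held 0. In shLUC-only regions these shares were higher, at 15.5% and 20.2%.

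**Figure D3:**
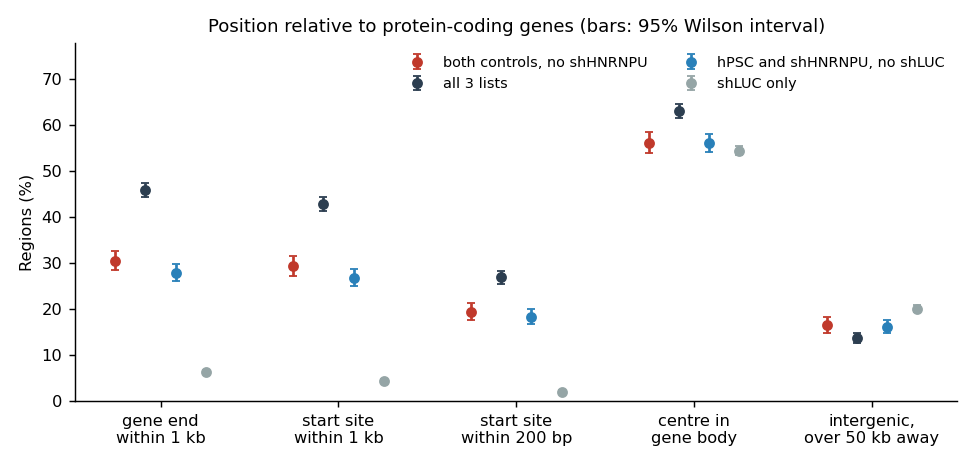
Percent of regions near gene ends or start sites, with their centre in a gene body, or intergenic and over 50 kb from a gene end, with 95% Wilson intervals. The regions of both controls absent after knockdown lie below those in all 3 lists at gene ends (30.6% and 46.0%), beside those of hPSC and shHNRNPU without shLUC (28.0%), and above those in shLUC only (6.32%).

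Around start sites, the regions were fewer than those kept in all lists on the downstream side. With chromosome 8 left out, since no start sites on it were used here, 506 of 1723 regions (29.4%) lay within 1 kb of a protein-coding start site. In the 200 bp before the start site were 8.94% of the regions and 9.32% of those in all 3 lists, a difference of -0.384 points (interval -1.98 to 1.32). In the first 200 bp after it were 10.6% and 17.6%, a difference of -7.03 points (interval -8.90 to -5.08). From 200 to 400 bp after it were 3.19% and 9.51%, a difference of -6.32 points (interval -7.56 to -5.01). This last deficit was also found among identical regions (-3.02 points, interval -5.08 to -1.16) and among shifted regions (-6.40 points, interval -8.06 to -4.47). Over the 1 kb before the start site the pooled difference was -0.412 points (interval -2.26 to 1.52), but identical regions were fewer there (-3.28 points, interval -6.39 to -0.271) and shifted regions more (3.08 points, interval 0.403 to 6.02). Regions absent from shLUC alone had 3.14% at 200 to 400 bp after the start site, and their difference of 0.0472 points had an interval of -1.03 to 1.18.

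**Figure D4:**
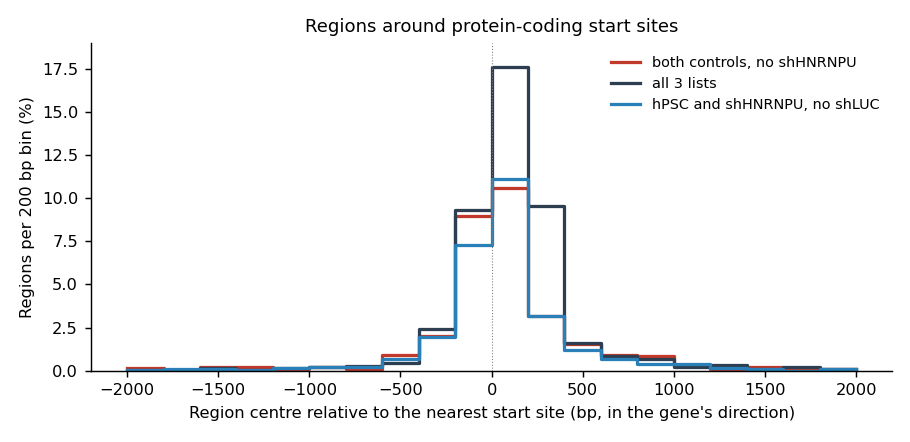
Percent of regions per 200 bp bin of the distance from the nearest protein-coding start site (bp, in the direction of the gene) to the region centre. The regions in all 3 lists reach 17.6% and 9.51% in the first bins after the start site, above the 10.6% and 3.19% of the regions of both controls absent after knockdown.

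The promoters at these regions were GC-rich but less so than those at the regions in all 3 lists. The 442 windows had a median GC content of 66.7% (quartiles 61.7 and 72.0%) and a median of 27 CpGs in 300 bases. The 1316 windows at regions in all 3 lists had a median of 71.7% (quartiles 66.3 and 76.0%) and 33 CpGs, and the 576 windows at regions absent from shLUC alone had 67.2% and 28 CpGs. All 22199 windows of protein-coding genes had a median of 62.3%. At least 70% GC was reached by 34.8% of the windows, against 60.5% in all 3 lists, a difference of -25.6 points (interval -30.7 to -20.4). The difference was -21.1 points for identical and -23.6 points for shifted regions.

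Against the regions in all 3 lists, short motifs differed in both directions. The GC box (GGGCGG on either strand), bound by Sp-family factors, was in 76.2% of the windows at these regions and in 84.0% at regions of all 3 lists. It was in 74.1% at regions absent from shLUC alone and in 45.0% of all 35116 windows of the same length. The ETS core, which holds an MspI site and so is not independent of it, was in 99 windows (22.4%, interval 18.8 to 26.5%). It was in 13.4% at regions of all 3 lists, a difference of 9.02 points (interval 4.90 to 13.5), in 20.7% at regions absent from shLUC alone, and in 10.3% of all windows. A TATA box was in 4.07% of the windows, in 3.88% at regions of all 3 lists (difference 0.197 points, interval -1.70 to 2.65), in 3.13% at regions absent from shLUC alone and in 11.5% of all windows. Sites of MspI were in 91.6% and those of HaeIII in 91.2%, against 96.7% and 95.3% at regions of all 3 lists. The other way round, RsaI sites were in 26.5% against 21.3%, a difference of 5.19 points (interval 0.672 to 9.99). AluI sites were in 73.1% against 67.8%, a difference of 5.30 points (interval 0.319 to 9.99). Among shifted regions these differences were 8.74 points (interval 3.02 to 14.9) and 6.73 points (interval 0.588 to 12.4). Among identical regions they were 0.581 points (interval -7.18 to 8.72) and -0.0793 points (interval -9.12 to 8.68), and these intervals held 0. Of all windows, 29.8% had an RsaI site and 74.1% an AluI site. At regions absent from shLUC alone, RsaI sites were in 23.6% of the windows and AluI sites in 71.9%. The differences from these were 2.86 points (interval -2.47 to 8.27) and 1.20 points (interval -4.37 to 6.67), and both intervals held 0. MspI sites were in 92.0% and HaeIII sites in 93.8% of the windows at regions absent from shLUC alone. Of the 442 windows, 372 belonged to protein-coding genes. Among all 22199 windows of protein-coding genes the GC box was in 56.3%, the ETS core in 12.8% and a TATA box in 9.47%. A match is a match of letters and shows no bound factor.

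**Figure D5:**
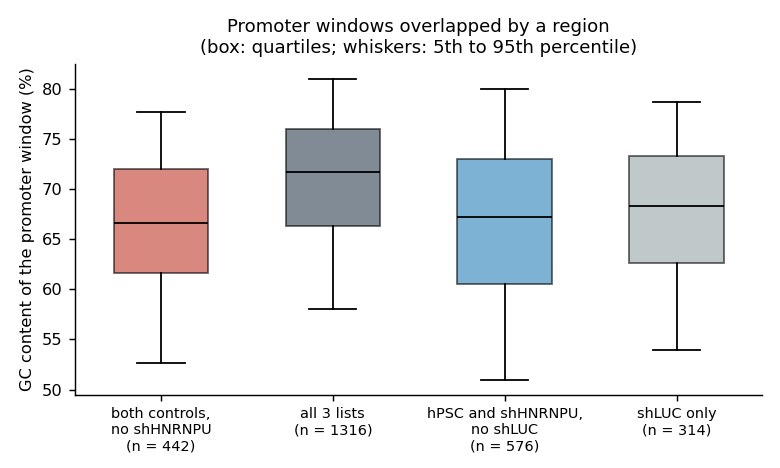
GC content (%) of the promoter windows overlapped by regions of each group, as boxes of the quartiles with the median and whiskers from the 5th to the 95th percentile. The median was 66.7% at regions of both controls absent after knockdown and 71.7% at regions in all 3 lists.

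The spacing of the regions along the genome was described with no background set beside it. Neighbouring regions of the set were a median of 944 kb apart, and 11 of 1783 neighbouring pairs were 10 kb or less apart. Within 100 kb of them lay 5407 other shLUC regions, of which 73.8% had a shHNRNPU region, against 74.2% of all 37561 other shLUC regions. Both shares leave out the regions of the set, and the 37561 include the 5407. Whether absences lay side by side thus cannot be read from them. By chromosome, of the shLUC regions that had an hPSC counterpart, the share absent after knockdown ranged from 26.5% on chromosomes 17 and 18 to 37.8% on chromosome 12 among the autosomes. Chromosome 19 held 57 of the regions (3.15%), and its share differed from that of the regions in all 3 lists by 0.524 points (interval -0.381 to 1.55). Chromosome X stood higher, with 38 of 80 (47.5%) against 1768 of 5524 on the autosomes (32.0%), a difference of 15.5 points (interval 4.85 to 26.4). With the hairpin lists exchanged, X was higher too, with 54 of 96 (56.3%) against 39.2%, a difference of 17.0 points (interval 6.95 to 26.6).

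The regions reached 1143 of 20037 protein-coding genes by overlap with the gene body, 1083 of them with 1 region, 56 with 2 and 4 with 3 or more. Counting also genes with an end within 1 kb of a region centre, 1253 genes (6.25%) were reached. Genes holding such a region had a median length of 75.2 kb, against 83.0 kb for genes with a region absent from shLUC alone, 63.2 kb for genes with a region in all 3 lists, 49.4 kb for genes with any shLUC region and 24.1 kb for all genes. The share of genes holding one rose with length from 1.74% of genes under 10 kb to 30.5% of genes of 500 kb or longer, and the shares for the regions absent from shLUC alone (2.56% to 37.1%) and for those in all 3 lists (5.87% to 46.7%) rose likewise. Of the 1143 genes, 952 had fewer regions in shHNRNPU than in shLUC and 379 had none in shHNRNPU. Over all 10551 genes with a shLUC region these shares were 33.7% and 12.6%, but the selection required an absence in each of the 1143 genes, so nothing is read from the difference.

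The 4 genes with 3 or more of these regions were all over 500 kb long. DLGAP2 on chromosome 8 (737628 to 1708476), a scaffold of the postsynaptic density, held 4, and had 24 regions in shLUC, 21 in hPSC and 20 in shHNRNPU. One of them (738003 to 738402) had its centre 575 bp from an end of the gene. PRKCA on chromosome 17, protein kinase C alpha, held 3, with 9 regions in shLUC, 10 in hPSC and 6 in shHNRNPU. Its region at 66303309 to 66303708, centred 896 bp into the gene, had a shHNRNPU region 591 bp away that spans the start of the gene. MYT1L on chromosome 2 held 3, with 17 regions in shLUC, 9 in hPSC and 9 in shHNRNPU. All 3 were identical in both controls (1823265 to 1823664, 2095420 to 2095819 and 2324566 to 2324965), and the last covers the window printed above. GPHN on chromosome 14, gephyrin of inhibitory synapses, held 3, with 21 regions in shLUC, 23 in hPSC and 14 in shHNRNPU. All 4 genes thus had shHNRNPU regions elsewhere in the gene, but PRKCA held 0 regions found in all 3 lists, against 3 in DLGAP2, 2 in MYT1L and 3 in GPHN.

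Of the 56 genes with 2 such regions, 6 had no shHNRNPU region and 50 had at least 1. The 8 described here were taken from these by the fewest shHNRNPU regions, so their low shHNRNPU counts were fixed by the choice. WDFY1 on chromosome 2, an endosomal protein, had 3 regions in shLUC, 4 in hPSC and 0 in shHNRNPU, with 1 region centred 544 bp after the start of the gene (223944591 to 223944990) and another 14770 bp after it (223930365 to 223930764). ILDR1 on chromosome 3, a protein of tricellular junctions, had 2, 3 and 0. SPAG6 on chromosome 10, of the sperm axoneme, had 3, 2 and 0, and 1 of its regions (22345348 to 22345747) was centred 52 bp after the start of the gene. STS on chromosome X, steroid sulfatase, had 2, 2 and 0, with a region centred 809 bp after the start (7147899 to 7148298). ACAN on chromosome 15, the cartilage proteoglycan aggrecan, had 3, 1 and 0, where 1 hPSC region overlapped the region at its start (88803271 to 88803670) by 24 bp outside the gene. C12orf42 on chromosome 12 had 3, 5 and 0. Of the other genes shown, BCAT1 on chromosome 12, a branched-chain aminotransferase, had 2, 3 and 1, and NOP9 on chromosome 14, of ribosome biogenesis, had 2, 3 and 1. No height or replicate stands behind these counts, so the loss of all regions of a gene was not tested.

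Among 39 genes of the nuclear matrix, the lamina and genome architecture, 1 (2.56%) was reached, against 6.25% of all genes. A region absent from shLUC alone was held by 2 genes of this list. The gene reached was SATB1, which codes for a protein that binds matrix attachment DNA. Its region on chromosome 3 (18443902 to 18444301) was centred 1490 bp after the start of the gene and overlapped the hPSC region by 179 bp, with the nearest shHNRNPU region at 18.1 kb. SATB1 had 2 regions in shLUC, 4 in hPSC and 1 in shHNRNPU. HNRNPU itself held none of the regions. Of 59 hnRNP and splicing factors, 5 (8.47%) were reached. HNRNPD on chromosome 4, an RNA-binding protein of mRNA decay, had 1 region in shLUC (82363772 to 82364171, identical in hPSC), 3 in hPSC and 0 in shHNRNPU. SRSF10 on chromosome 1 likewise had 1 region in shLUC, 1 in hPSC and 0 in shHNRNPU (23980246 to 23980645, centred 119 bp before the start). The splicing regulators CELF2, CELF4 and RBFOX1 each held 1 inside the gene, over 10 kb from its ends, and had 5, 9 and 24 shHNRNPU regions elsewhere.

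Of 29 pluripotency regulators found in the gene table, 0 were reached, at a background of 6.25% of all genes. These genes had a median length of 13.5 kb, 5 held a region absent from shLUC alone and 4 a region of all 3 lists. Of 55 transcription factors of early lineages, 2 (3.64%) were reached. ZEB1 on chromosome 10 had a region centred 1301 bp after the annotated start of the gene (31319518 to 31319917), with 4 regions in shLUC, 2 in hPSC and 2 in shHNRNPU. PAX3 on chromosome 2, of the neural crest and muscle, had 1 inside the gene (222291072 to 222291471, identical in hPSC). Of 90 chromatin modifiers, 6 (6.67%) were reached, with HDAC7, a histone deacetylase, the nearest at 2102 bp from its start.

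The list of 92 synaptic adhesion and axon guidance genes had the highest share, with 23 reached (25.0%). Its genes had a median length of 377 kb, and of all genes of 200 to 500 kb 18.4% were reached. It also held 29 genes with a region absent from shLUC alone. At gene ends, SEMA5A on chromosome 5, a guidance cue, had a region centred 295 bp after its start (9545580 to 9545979), and NTNG2 on chromosome 9, a netrin, had one centred 89 bp from a gene end (132161578 to 132161977). Of 72 genes of DNA replication and repair, 6 (8.33%) were reached. FANCA on chromosome 16, of crosslink repair, had an identical region centred 27 bp before its start (89816474 to 89816873), and MRE11 on chromosome 11, a nuclease of break repair, had one centred 33 bp before its start (94512245 to 94512644).

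In the lists of short housekeeping genes the share reached lay on either side of the 6.25% of all genes. That background is not matched for length, since 2.23% of all genes under 10 kb and 4.83% of those of 10 to 50 kb were reached. Median lengths were 13.6 kb for the proteasome list, 5.09 kb for cytosolic and 8.62 kb for mitochondrial ribosomal proteins. Of 48 proteasome subunits and assembly factors, 5 (10.4%) were reached, among them PSMG1 on chromosome 21, an assembly chaperone, and PSME1 on chromosome 14, a subunit of the PA28 activator. Each had 1 region in shLUC, 1 in hPSC and 0 in shHNRNPU, identical in both controls and centred 60 bp (39183374 to 39183773) and 102 bp (24135892 to 24136291) before the start. Of 86 cytosolic ribosomal proteins, 4 (4.65%) were reached, including RPL10L on chromosome 14, a short copy of RPL10 with the region at 46651515 to 46651914 (267 of its 400 bases in the gene), where the assignment of reads between the copies was not tested, and RPL41 on chromosome 12, with a region centred 222 bp past its end and no base inside the gene. Of 77 mitochondrial ribosomal proteins, 1 (1.30%) was reached. Of 509 ZNF genes, which code for zinc-finger proteins, 31 (6.09%) were reached, near the background. ZNF134 on chromosome 19 had an identical region centred 51 bp before its start (57613991 to 57614390), with a shHNRNPU region 746 bp away, and ZNF792 on the same chromosome had one 56 bp after its start (34963973 to 34964372). The counts of these lists stand beside the background of all genes and were not tested.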

How the data were processed

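Matrix-attached DNA of H1 cells was sequenced by the authors from 2 samples per group. The labels' processing notes name cutadapt, Bowtie2, SAMtools, MACS2 and deepTools and the build hg38. The threshold, the use of the input and the handling of replicates are not given in the sources used here. The paper supplied with the series covers other experiments, and no methods were taken from it. The authors deposited positions (a chromosome, a start and an end, all regions 400 bp wide) and a score of 0 in every row, so the deposited score carries no height and the depth is unknown. Positions are counted from 1.

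Regions counted as shared from 1 bp of overlap. Gene positions came from RefSeq (GRCh38.p14) and start sites from its promoter table, which has 35116 windows and none used here on chromosome 8. In 2700 of 2700 overlapping windows of opposite strands the sequences read as reverse complements. Shares have 95% Wilson intervals and differences Newcombe intervals. They cover counting error only, and no test between conditions was possible with 1 list per group. The regions, gene lists and motifs were chosen with earlier results of these data known. Named genes were the 12 with most of the regions (ties broken by fewer shHNRNPU regions, then more hPSC regions), all reached genes of the matrix, splicing, pluripotency and lineage lists, and the 2 genes of each other list with an end nearest to a region. The labels list RNA as the molecule, whereas the protocol describes DNA. Printed promoters, from windows wholly inside a region, were the 2 of highest and 2 of lowest GC content and 6 of genes in the lists. Alternatives were other overlaps, distances, gene sets and chromosomes. The code was tested on simulated lists. Analyses ran in Python 3.11.15 with pandas 2.3.3, numpy 2.4.6 and scipy 1.17.1, and plots were drawn with matplotlib 3.10.9.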

Additional observations from a re-analysis of the deposited data

How the results depend on the processing

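Of 37 recomputed values of 10 results, 31 stayed within the interval of the reported value or, for counts, within 1.5 times of it, 5 moved further and 1 reversed. Of these settings 6 were chosen after seeing the data. Requiring identical coordinates in hPSC lowered the number of regions from 1807 to 973 and that of the regions absent from shLUC alone from 2481 to 1590. It raised the difference in absence between shLUC regions with and without an hPSC region from 3.50 to 28.1 points, and an overlap of at least 50% of both regions raised it to 6.50 points. Leaving out identical regions reversed it to -7.18 points, and shrank the difference in the gene end share against the regions in all 3 lists from -15.4 to -7.39 points. The cause was not tested. Requiring that no shHNRNPU region lay within 10 kb left 1340 regions. No paired analysis was possible because the 2 samples of a group are merged in a single list, and so no replicate could be left out. The number of regions in a list also depends on sequencing depth and on the calling threshold, and both are unknown.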

Other observations

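Genes that code for no protein held some of the regions of both controls absent after knockdown. Of 18303 lncRNA genes 334 (1.82%) held at least 1, and 699 held a region found in all 3 lists. Among the lncRNA genes with 2 were MIR9-2HG on chromosome 5, the host gene of a brain miRNA, with 5 regions in shLUC, 6 in hPSC and 1 in shHNRNPU, and PAX6-AS1 on chromosome 11, with 3, 4 and 1. These genes were chosen as those with most of the regions, after their values were seen. Of 1913 miRNA genes 5 (0.261%) overlapped a region of both controls absent after knockdown, and 11 held a region found in all 3 lists. The 5 included MIR1260B within MAML2 on chromosome 11 (region 96341472 to 96341871) and MIR8073 within COL4A2 on chromosome 13 (region 110340855 to 110341254). Both regions were identical in the 2 control lists, with the nearest shHNRNPU regions 25.9 kb and 15.5 kb away.

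In windows of 1 Mb, the 1807 regions fell into 1253 windows, and 848 of these held 1 region and 116 held 3 or more. The largest number was 6, between 57000001 and 58000000 on chromosome 19. There, the shLUC list had 23 regions, 7 of them shared with hPSC, and the shHNRNPU list had 16 regions.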
